A study of Mus musculus with 4 samples.

Results

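The 31 cell cycle genes described here are 11 genes of DNA replication, 13 genes of mitosis and 7 genes for tubulins, the tubulin-binding protein stathmin, chromatin proteins and histones. They were chosen by name, from the 32285 genes of the tables, and all 31 were found. The cells were small-intestinal epithelial cells of mice, sorted as live EPCAM+ CD45- cells and sequenced as single cells after gamma irradiation at 11 Gy, during which lead shielded the upper limbs, the thorax and the head. The labels give the time of collection as 96 h in one place and as 3 days in another. The WT group was 3 wild-type mice, and the KO group was 3 VilCreIfnlr1fl/fl mice, in which a Cre driven by the villin promoter deletes the receptor of type III interferons in intestinal epithelium. Every mouse was irradiated, and no unirradiated mice were analysed here. The 3 mice of a genotype were labelled with hashtags 1, 2 and 3 (barcoded antibodies that mark the cells of 1 animal) and pooled into 1 library, so that genotype and library cannot be told apart. Mice are named below by genotype and hashtag, from WT1 to KO3, and KO means the library labelled VilCreIfnlr1fl/fl.

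A dividing cell first licenses its replication origins with the MCM2-7 helicase, then copies its DNA at forks held by the sliding clamp PCNA, fed by enzymes that make deoxynucleotides. Cyclin A and cyclin B with the kinase CDK1 then drive entry into mitosis, in which topoisomerase, centromere and spindle proteins separate the chromosomes and the anaphase-promoting complex degrades the cyclins. In the small intestine, stem cells and transit-amplifying cells at the base and sides of the crypts divide, and their offspring stop dividing as they move onto the villus as absorptive enterocytes or as secretory cells. High-dose radiation kills many crypt cells, and the surviving crypts then regrow by division.

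The promoters of 24 of the 31 members were matched by symbol in RefSeq's table for GRCm38.p6, and 4 are shown because they set the replication members beside the mitosis members. Each run is the 250 bases before the annotated start, 5′ to 3′ on the gene's strand. Capitals mark the CHR element TTTGAA, the E2F-type sites TTTCCCGC and TTTGGCGC, and the CCAAT box, on either strand. Mcm6, a helicase subunit, is on the minus strand at chr1:128359706-128359955, and Mcm5, another helicase subunit, is on the plus strand at chr8:75109259-75109508. Top2a, the topoisomerase that untangles sister chromosomes, is on the minus strand at chr11:99024190-99024439, and Mki67, which coats mitotic chromosomes, is on the minus strand at chr7:135716380-135716629.
Mcm6: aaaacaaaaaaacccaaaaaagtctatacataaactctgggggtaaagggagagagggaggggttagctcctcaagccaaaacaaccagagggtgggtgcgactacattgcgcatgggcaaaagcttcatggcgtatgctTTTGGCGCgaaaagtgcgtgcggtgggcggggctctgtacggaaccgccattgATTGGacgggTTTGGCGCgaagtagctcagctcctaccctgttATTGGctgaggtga
Mcm5: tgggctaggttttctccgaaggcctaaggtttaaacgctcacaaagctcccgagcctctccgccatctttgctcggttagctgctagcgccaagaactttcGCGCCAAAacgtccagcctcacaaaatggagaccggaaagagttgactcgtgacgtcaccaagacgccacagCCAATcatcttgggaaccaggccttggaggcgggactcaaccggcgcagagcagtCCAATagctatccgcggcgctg
Top2a: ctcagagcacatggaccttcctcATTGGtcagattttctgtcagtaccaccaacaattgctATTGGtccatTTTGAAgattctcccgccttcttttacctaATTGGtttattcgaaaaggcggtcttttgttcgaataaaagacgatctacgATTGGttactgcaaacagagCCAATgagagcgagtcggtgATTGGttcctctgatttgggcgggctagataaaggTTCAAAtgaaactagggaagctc
Mki67: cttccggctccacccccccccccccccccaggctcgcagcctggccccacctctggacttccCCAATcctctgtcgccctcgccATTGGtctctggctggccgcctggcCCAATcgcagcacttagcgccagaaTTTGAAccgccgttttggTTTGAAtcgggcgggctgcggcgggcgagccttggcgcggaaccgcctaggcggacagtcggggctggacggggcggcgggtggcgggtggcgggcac

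The Mcm6 run holds 2 E2F-type sites and no CHR element, and the Mcm5 run holds 1 E2F-type site and no CHR element. Both the Top2a and the Mki67 run hold 2 CHR elements and no E2F-type site. All 4 runs hold CCAAT boxes. Over the matched members, the CHR letters stood in 6 of 10 mitosis promoters and 1 of 9 replication promoters, against 15.99% of 32851 promoters of the same length. The E2F-type letters stood in 0 of 10 mitosis promoters and in 3 of 9 replication promoters (Mcm5, Mcm6 and, in 1 of its 2 listed windows, Mcm7), against 1.30% of all. CCAAT stood in 20 of 24 members and 33.8% of all promoters. Of the 24 members Mcm7 alone had 2 windows in the table. These are matches of letters and were not tested.

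Ifnlr1, the deleted gene, was at 22.3, 15.3 and 26.3 CPM (a gene's UMIs per 1000000 UMIs) in WT1 to WT3 and at 27.0, 15.98 and 22.1 CPM in KO1 to KO3. The counts are of 3′ ends, and whether the deleted exons hold these tags is not given in the sources used here, so the values do not check the genotype. Of 17823 barcodes, 9591 reached 1000 UMIs (unique molecular identifiers, which count RNA molecules) and 500 genes with mitochondrial UMIs of 25% or less, with 5563 in the WT library and 4028 in the KO library. A hashtag call gave 5588 of them to 1 mouse, between 806 and 1070 cells per mouse. UMIs summed over a mouse ranged from 10884914 to 36291239, and the 2 hashtag 2 mice had the highest median UMIs per cell of their genotype, 12868 in WT2 and 20269 in KO2 against 8669 to 11687.5 in the others. Summed markers differed with hashtag as well. Crypt progenitor markers reached 960 CPM in WT2 and 951 in KO2 and 190 to 283 in the other 4 mice, and villus-top markers were 6386 and 4135 against 10916 to 20737. Immune markers summed to 121 CPM in WT2 against 3.95 to 5.86 CPM in the other mice, and 2394 UMIs of Jchain in 1 immune-gated cell made up most of that sum. In the crypt-marker and low-marker cells of WT2 the same list was at 6.59 and 4.24 CPM, and Ptprc, the CD45 gene, had no UMI in these gates in any mouse. Libraries shared 28 barcodes.

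Hashtag 2 carried most cell cycle RNA in both libraries. WT2 held 15.3% of the passing WT cells and 30.9% of their UMIs, but 67.1% of the replication UMIs and 71.2% of the mitosis UMIs. KO2 held 24.9% of the KO cells and 41.5% of their UMIs, but 75.0% of the replication UMIs and 81.9% of the mitosis UMIs. No other single mouse carried more than 4.71% of either. In the WT library, barcodes with no hashtag call carried 12.03% of replication and 13.9% of mitosis UMIs, and hashtag doublets carried 11.5% and 12.1%. In the KO library the doublets carried 13.8% and 13.5%, and barcodes without a call 2.73% and 0.850%.

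**Figure D1:**
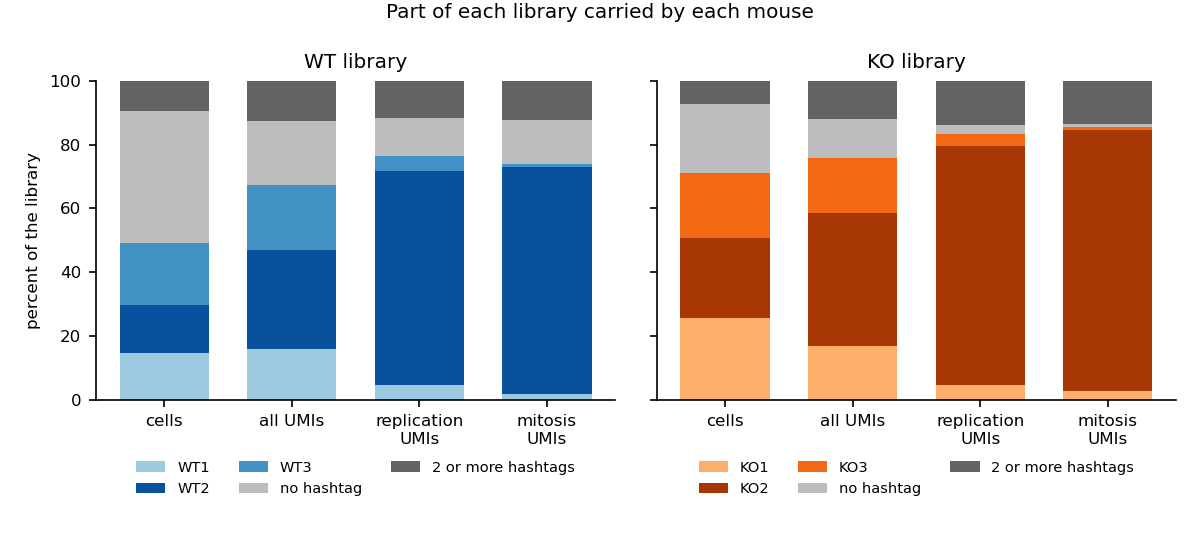
Share (percent) of cells, of all UMIs, of replication UMIs and of mitosis UMIs in each library that fell to each mouse, to barcodes with no hashtag call and to hashtag doublets. The share of WT2 grows from 15.3% of cells to 71.2% of mitosis UMIs, and that of KO2 from 24.9% to 81.9%.

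Summed over the 11 replication members, levels were 44.9 CPM in WT1, 332 in WT2 and 34.6 in WT3, and 64.3 in KO1, 438 in KO2 and 55.7 in KO3. The 13 mitosis members summed to 36.0, 747 and 15.5 CPM in the WT mice and to 84.0, 1007 and 27.7 CPM in the KO mice. A second hashtag call took the top hashtag at 50 UMIs or more and 3 times the next, which gave WT3 1945 cells. With this ratio rule the mitosis sums were 32.3, 744 and 44.2 CPM in WT and 75.9, 906 and 53.1 CPM in KO. The order of WT1 and WT3 thus depended on the hashtag call. In each genotype the hashtag 2 mouse stood far above the other mice, and the ranges of WT and KO overlapped. All 31 members were higher in both hashtag 2 mice than in any of the other 4 mice, an order that 46.6% of 13587 genes shared. The fold over the next mouse of the same genotype was larger for mitosis, with a median over members of 19.3 in WT and 12.9 in KO, than for replication, with medians of 9.97 and 9.03. In sums over a mouse, more cells in cycle and more RNA per cell cannot be told apart.

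Among the 8 members of the replication fork and its licensing, Pcna had the flattest profile. Its levels were 21.8, 71.7 and 17.4 CPM in WT1 to WT3 and 26.3, 96.2 and 25.99 CPM in KO1 to KO3, so that WT2 was 3.29 times the next WT mouse. Mcm7, a helicase subunit, was at 4.96, 36.0 and 5.48 CPM in WT and 9.31, 41.7 and 6.51 CPM in KO. The other helicase subunits Mcm2 to Mcm6 and Gins2, a subunit of the GINS complex that activates the helicase, had 12.1 to 32.8 CPM in WT2 and 16.2 to 43.8 CPM in KO2, and 0.142 to 4.86 CPM in the other 4 mice. Nucleotide supply followed the same order. Tyms, which makes thymidylate, was at 2.76, 46.6 and 2.42 CPM in WT and 5.19, 66.7 and 5.13 CPM in KO. Rrm1, the large subunit of ribonucleotide reductase, was at 2.76, 31.3 and 1.64 CPM against 3.30, 41.7 and 2.11 CPM. Its small subunit Rrm2 was at 1.19, 30.1 and 2.35 CPM against 1.96, 39.0 and 2.5004 CPM.

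Of the mitotic kinases, cyclins and degradation factors, Ube2c, the E2 enzyme of the anaphase-promoting complex, was at 9.46, 139 and 3.28 CPM in WT and 22.9, 187 and 10.5 CPM in KO. Cdk1 was at 2.85, 49.2 and 0.641 CPM in WT and 6.27, 62.4 and 1.78 CPM in KO. With the main hashtag call, hashtag 3 was thus the lowest of each genotype for both genes. Ccnb1, which encodes cyclin B1, had 27.8 CPM in WT2, 36.3 CPM in KO2 and no UMI in WT3. Cdc20, an activator of the anaphase-promoting complex, was at 2.94, 35.8 and 4.77 CPM in WT and 3.17, 41.8 and 1.58 CPM in KO, and was the 1 mitosis member that was lower in KO3 than in WT3. Ccna2, Ccnb2 and Aurkb, a kinase of the chromosomal passenger complex, were at 17.3 to 42.5 CPM in WT2, 22.7 to 51.2 CPM in KO2 and 0.0712 to 3.98 CPM elsewhere.

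Chromosome and spindle members had the same order of hashtags. Top2a was at 4.50, 103 and 1.07 CPM in WT and 10.3, 158 and 2.30 CPM in KO. Birc5, the survivin subunit of the chromosomal passenger complex, was at 5.70, 101 and 1.78 CPM against 8.77, 137 and 3.42 CPM. Mki67 was at 1.56, 67.9 and 0.783 CPM against 5.06, 99.7 and 1.32 CPM. Cenpa, the centromeric histone H3, Cenpf, a kinetochore protein, and Tpx2, a spindle assembly factor, had 28.1 to 56.9 CPM in WT2, 40.3 to 70.5 CPM in KO2 and 0.285 to 5.87 CPM in the other mice.

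Of the remaining members, tubulins and chromatin proteins are also used by cells that do not divide, and 5 members (Tubb5, Tuba1b, Hmgb2, Hmgn2 and Hist1h2ap) have near-identical relatives or pseudogenes, which makes their counts less certain. Tubb5, a beta-tubulin, was at 23.0, 166 and 21.6 CPM in WT and 38.3, 199 and 43.3 CPM in KO. Stmn1, the microtubule destabilizer stathmin, was at 12.1, 194 and 4.27 CPM against 16.4, 228 and 9.61 CPM. H2afz, the histone variant H2A.Z, was at 168, 769 and 135 CPM against 169, 930 and 167 CPM, and Hmgb2, a DNA-bending chromatin protein, at 38.9, 506 and 28.7 CPM against 47.6, 708 and 28.8 CPM. Hist1h2ap, a replication-dependent H2A histone, was the member with the largest ratio of KO2 to WT2. Its levels were 1.65, 54.0 and 0.712 CPM in WT and 5.06, 199 and 2.57 CPM in KO, a ratio of 3.69 at hashtag 2 against a median of 1.33 over the 31 members.

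**Figure D2:**
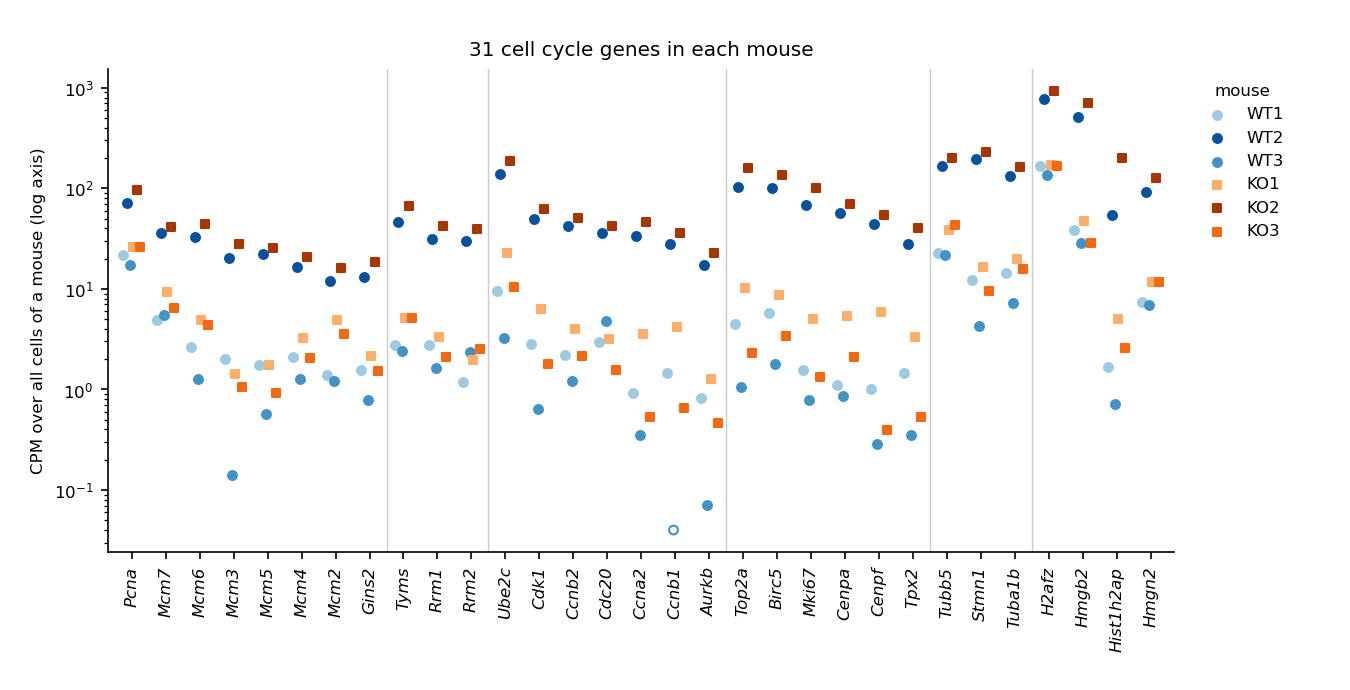
CPM of each of the 31 members in each mouse on a log axis, grouped by role, with WT and KO mice in different colours and an open circle where a mouse had no UMI. For every member the 2 hashtag 2 mice lie above the other 4 mice.

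To place this RNA, cells were put into gates by their share of marker UMIs, with no member among the markers and with limits chosen after the values were seen. The crypt-marker gate holds cells with at least 5 crypt progenitor UMIs per 10000 that passed no gate for a differentiated or immune cell, and the low-marker gate holds cells that reached none of the limits. The gates are ranges of a score and not cell types: 284 cells lay within 20% of the crypt limit. The crypt-marker gate held 11, 86 and 7 cells in WT1 to WT3 and 21, 136 and 20 cells in KO1 to KO3. In the low-marker gate there were 10, 95 and 29 WT cells and 25, 156 and 27 KO cells. The enterocyte gate, with at least 300 enterocyte UMIs per 10000, held 526 to 875 cells of every mouse.

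In WT2, crypt-marker cells held 63.1% of the replication and 60.5% of the mitosis UMIs of the mouse, and low-marker cells 24.8% and 31.5%. In KO2 the crypt-marker shares were 59.3% and 46.9% and the low-marker shares 32.0% and 47.8%. Within the crypt-marker gate, replication members summed to 246, 935 and 140 CPM in WT1 to WT3 and 187, 1019 and 219 CPM in KO1 to KO3. Mitosis members summed to 358, 2018 and 37.7 CPM in WT and 372, 1852 and 138 CPM in KO. Single cells weighed on the small gates: 1 cell held 90.03% of the mitosis UMIs of KO1 there and 1 cell 74.5% of those of WT1, and without these cells the sums were 41.4 and 104 CPM. The hashtag 2 mice thus also stood apart among cells gated on the same markers, and all 31 members were higher there in both hashtag 2 mice than in the other 4 (25.7% of 10603 genes were). The crypt-marker cells of the hashtags differed in other genes too. Olfm4, a stem cell marker, was at 1.498, 2166 and 349 CPM in WT and 2.01, 1579 and 7.22 CPM in KO, and 9 genes of regenerating epithelium summed to 5894, 307 and 4252 CPM in WT and 2498, 560 and 4777 CPM in KO. Their part in the difference between hashtags was not tested.

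Low-marker cells had replication sums of 111, 458 and 113 CPM in WT and 74.0, 488 and 78.9 CPM in KO. Their mitosis sums were 7.92, 1305 and 18.6 CPM in WT and 20.6, 1676 and 43.8 CPM in KO. In the low-marker gate 30 of 31 members were higher in both hashtag 2 mice than in the other 4 (31.6% of 9899 genes were). The low-marker cells of the hashtags also differed in depth and in villus markers. Median UMIs were 45012 in WT2 and 64709.5 in KO2 against 6438 to 10072 in the other 4 mice. Villus-top genes summed to 1445 and 391 CPM against 4493 to 12744 CPM. The part of these differences was not tested. Enterocyte-gated cells were low throughout, with 28.3, 41.4 and 29.5 CPM of replication members in WT and 43.8, 64.4 and 45.0 CPM in KO. Their mitosis sums were 11.7, 15.4 and 16.03 CPM in WT and 17.1, 32.9 and 16.02 CPM in KO. Here 8 of 31 members put both hashtag 2 mice above the other 4, near the 29% of 10583 genes that did. Those genes had a mean of at least 10 UMIs in the gate, which some members did not reach. Goblet-gated cells, cut on secretory markers such as Muc2, had mitosis sums of 16.9, 375 and 7.94 CPM in WT and 14.7, 323 and 21.1 CPM in KO. A few cells carried much of this: 1 cell held 47.7% of the goblet-gate mitosis UMIs of WT2 and 1 cell 27.1% of those of KO2. Without these cells the sums were 202 and 240 CPM. Goblet-gated cells with at least 20 mitosis UMIs numbered 4 in WT2 and 8 in KO2.

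Few cells carried the mitosis RNA of some mice. In WT1, 1 crypt-marker cell held 178 of the 392 mitosis UMIs, and in KO1, 1 Paneth-gated cell held 617 of 1245. Cells with at least 20 mitosis UMIs numbered 2, 99 and 0 in WT1 to WT3 and 2, 195 and 3 in KO1 to KO3.

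**Figure D3:**
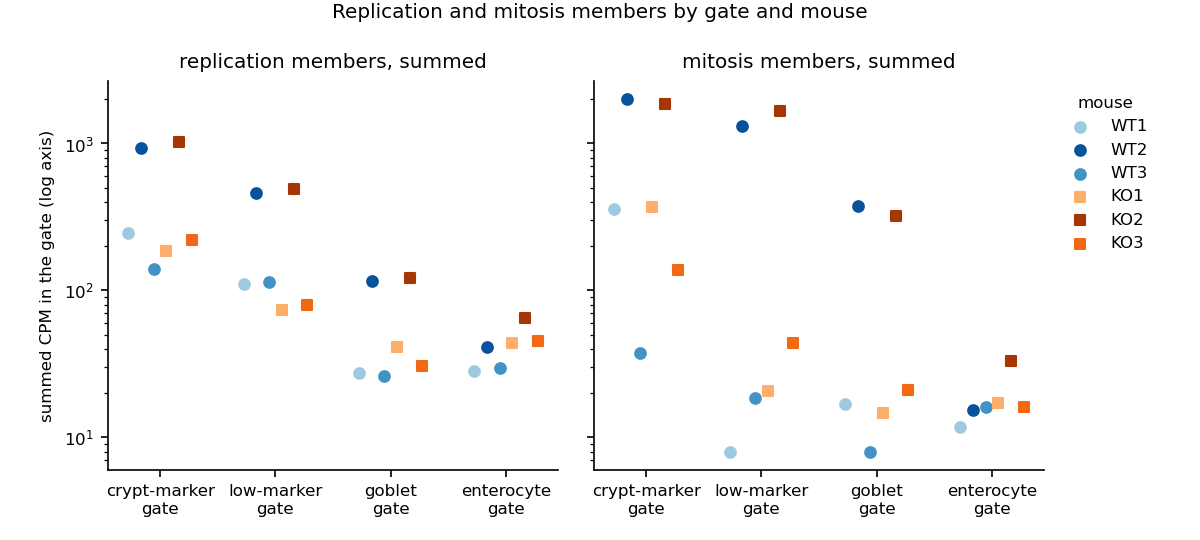
Summed CPM of the replication and of the mitosis members in the crypt-marker, low-marker, enterocyte and goblet gates, 1 point per mouse, on a log axis. WT2 and KO2 are the highest mice of the crypt-marker and low-marker gates for both groups of members.

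Against enterocyte-gated cells of the same mice, crypt-marker cells had higher levels of every member. The 4 mice with at least 20 cells in both gates (WT2, KO1, KO2 and KO3) entered edgeR's quasi-likelihood test with mouse as a block. All 31 members, of which 18 had enough counts within the enterocyte gate to be tested there, passed as higher at a Benjamini-Hochberg adjusted p of 0.05, where 35.5% of 11515 genes passed as higher and 67.7% in either direction. The median log2 difference was 3.65 for replication members (range 1.30 to 6.85) and 5.02 for mitosis members (range 3.34 to 6.14). Within the enterocyte gate, 6 of 11 replication and 5 of 13 mitosis members had enough counts. The others entered through the crypt-marker cells, so the count and both medians are partly set by the filter and do not rank the 2 groups. Without WT2, 27 of 31 members passed (background 30.8%), and without KO2, 25 of 30 (background 32.3%).

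Mcm3, a helicase subunit, was at 67.4, 10.0, 82.0 and 12.03 CPM in the crypt-marker cells of WT2, KO1, KO2 and KO3 and at 0.125, 0.110, 0.374 and 0.237 CPM in their enterocyte-gated cells (log2 difference 6.85, SE 0.49, adjusted p from edgeR = 6.2e-05). Since it had 1, 1, 4 and 2 UMIs in the latter, it entered the test through the crypt-marker cells and its fold is poorly fixed. Tyms differed by 4.26 (SE 0.31, adjusted p = 6.3e-05), Rrm1 by 3.54 (SE 0.69, adjusted p = 0.0031) and Mcm7 by 2.53 (SE 0.43, adjusted p = 0.0016). Pcna was the smallest at 1.30 (SE 0.35, adjusted p = 0.012), with 166, 51.2, 187 and 50.5 CPM in crypt-marker cells against 22.9, 21.2, 37.7 and 25.3 CPM in enterocyte-gated cells. For Pcna, too, the crypt-marker cells of each mouse were above its enterocyte-gated cells.

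Mitosis members had few UMIs in enterocyte-gated cells. Cdk1 was at 139, 36.1, 127 and 8.42 CPM in the crypt-marker cells of these 4 mice and at 1.75, 0.552, 1.96 and 0.949 CPM in their enterocyte-gated cells (log2 difference 5.05, SE 0.50, adjusted p from edgeR = 0.00017). Cenpf differed by 6.14 (SE 0.60), from 2, 3, 16 and 2 UMIs in enterocyte-gated cells, with the same limit as Mcm3. Top2a differed by 5.02 (SE 0.78, adjusted p = 0.0011), Ube2c by 5.00 (SE 0.43, adjusted p = 9.9e-05) and Birc5 by 3.87 (SE 0.66, adjusted p = 0.0017). In the crypt-marker gate 1 cell held 90.03% of the mitosis UMIs of KO1, and 1 cell 50.4% of those of KO3. The fits of single genes were not rerun without these cells. Of the other members, Tubb5 differed by 4.87 (SE 0.26), Stmn1 by 4.67 (SE 0.68), Hmgb2 by 3.04 (SE 0.88) and H2afz by 2.23 (SE 0.38). H2afz kept 81.8 to 149 CPM in the enterocyte-gated cells of these mice.

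The sums of mitosis and of replication members were compared between these gates in each of the 4 mice. The log2 ratio of crypt-marker to enterocyte-gated cells was 7.04, 4.44, 5.81 and 3.11 for mitosis in WT2, KO1, KO2 and KO3, and 4.50, 2.09, 3.98 and 2.28 for replication. The replication minus mitosis difference averaged -1.89 (exact sign-flip test over 4 mice, 2-sided, p = 0.125, the smallest value 4 mice allow). This rests in KO1 on 1 crypt-marker cell: without it the KO1 ratios were 1.28 for mitosis and 1.84 for replication, the difference in KO1 turned to 0.56, and the mean was -1.16 (exact sign-flip p = 0.25). That cell was left out after the data were seen.

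Other genes of the cell cycle, on lists chosen with earlier results of these data known, were counted in the same comparison, beside the 35.5% of genes called higher and 67.7% called in either direction. Of 36 other replication genes tested, 27 passed as higher (median 2.77), among them Rpa3 of the single-strand binding complex (2.91, SE 0.21), Chaf1b of a histone chaperone (5.19, SE 0.40) and Pole2 of a DNA polymerase (5.23, SE 0.44). Of 41 other mitosis genes, 37 passed as higher (median 3.88), among them the kinetochore motor Cenpe (5.38, SE 0.37) and Ccnf, which encodes cyclin F (7.02, SE 0.52). Within the enterocyte gate, 23 other replication and 20 other mitosis genes had enough counts to be tested. Many of the genes counted here thus entered through the crypt-marker cells, so these counts are partly set by the filter. Of 27 G1 regulators and inhibitors, 13 passed as higher, including Cdk6 (4.22), Cdk4 (4.15), Ccne1 (5.29), Myc (5.56) and Ccnd1 (5.85), and 5 as lower, including Ccng2, a cyclin of arrested cells (-4.10). Among other histone genes 6 of 19 were higher (Hist1h2ae 3.88) and 4 lower (Hist1h1c -2.36 and Hist1h2bc -2.01), a share near that of all genes.

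A comparison of crypt-marker with low-marker cells in the same 4 mice, added after the data were seen, found 8 of 31 members higher and none lower, where 5.38% of 10057 genes were called higher and 10.9% in either direction. They were 5 helicase subunits, Rrm1, Tubb5 and Stmn1. The log2 differences, with SE and edgeR adjusted p, were 1.77 for Mcm3 (0.30, 0.010), 1.56 for Mcm6 (0.32, 0.019), 1.46 for Mcm4 (0.31, 0.022), 1.17 for Mcm5 (0.27, 0.029) and 1.12 for Mcm7 (0.26, 0.029). Rrm1 differed by 1.06 (0.26, 0.035), Tubb5 by 1.48 (0.30, 0.019) and Stmn1 by 1.40 (0.31, 0.027). None of the 13 mitosis members passed in edgeR (1 at an unadjusted p under 0.05), and their median difference was 0.49 against 1.12 for replication. This count depends on the setting: at a crypt limit of 10, which left 2 mice, 6 of 13 mitosis members passed (Cenpf, Tpx2, Mki67, Cdk1, Aurkb and Top2a) and 10 of 11 replication members, where 20.8% of genes were higher. With no count filter Top2a alone of the mitosis members passed (adjusted p from edgeR = 0.030, background 6.89%). Without WT2 the count was 3 of 26 (background 1.51%), and without KO2 4 of 26 (background 3.45%).

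In WT2, Mcm6 stood at 103 CPM in crypt-marker and 37.6 CPM in low-marker cells, and in KO2 at 115 and 38.0 CPM. Birc5 stood at 251 and 210 CPM in WT2 and at 216 and 260 CPM in KO2. In these mice the 2 gates were thus closer in Birc5 than in Mcm6, but this pair does not stand for all members. The mitosis gene Top2a stood at 301 and 156 CPM in WT2 and at 349 and 218 CPM in KO2. The replication gene Tyms was closer, at 121 and 81.8 CPM in WT2 and 137 and 95.4 CPM in KO2. KO1 and KO3 had few UMIs of Mcm6 or Birc5 in their low-marker cells, 0 and 4.38 CPM of Mcm6 and 0 and 2.19 CPM of Birc5. Those cells had median depths of 6723 and 10072 UMIs, against 45012 in WT2 and 64709.5 in KO2. Over the 4 mice the summed arms did not differ in 1 direction: replication minus mitosis, as a log2 ratio of the gates, was 0.40 in WT2, -2.84 in KO1, 0.92 in KO2 and -0.19 in KO3 (mean -0.43, exact sign-flip test, 2-sided, p = 0.875). Without the same cell of KO1 its value was 0.072 and the mean 0.30 (exact sign-flip p = 0.375). Of 42 other replication genes, 16 passed as higher, among them Dtl (2.59), Pola1 (1.91), Cdt1 (1.86), Ung (1.82) and Dnmt1 (1.40), against 1 of 57 other mitosis genes (Ncapg2, 1.37).

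**Figure D4:**
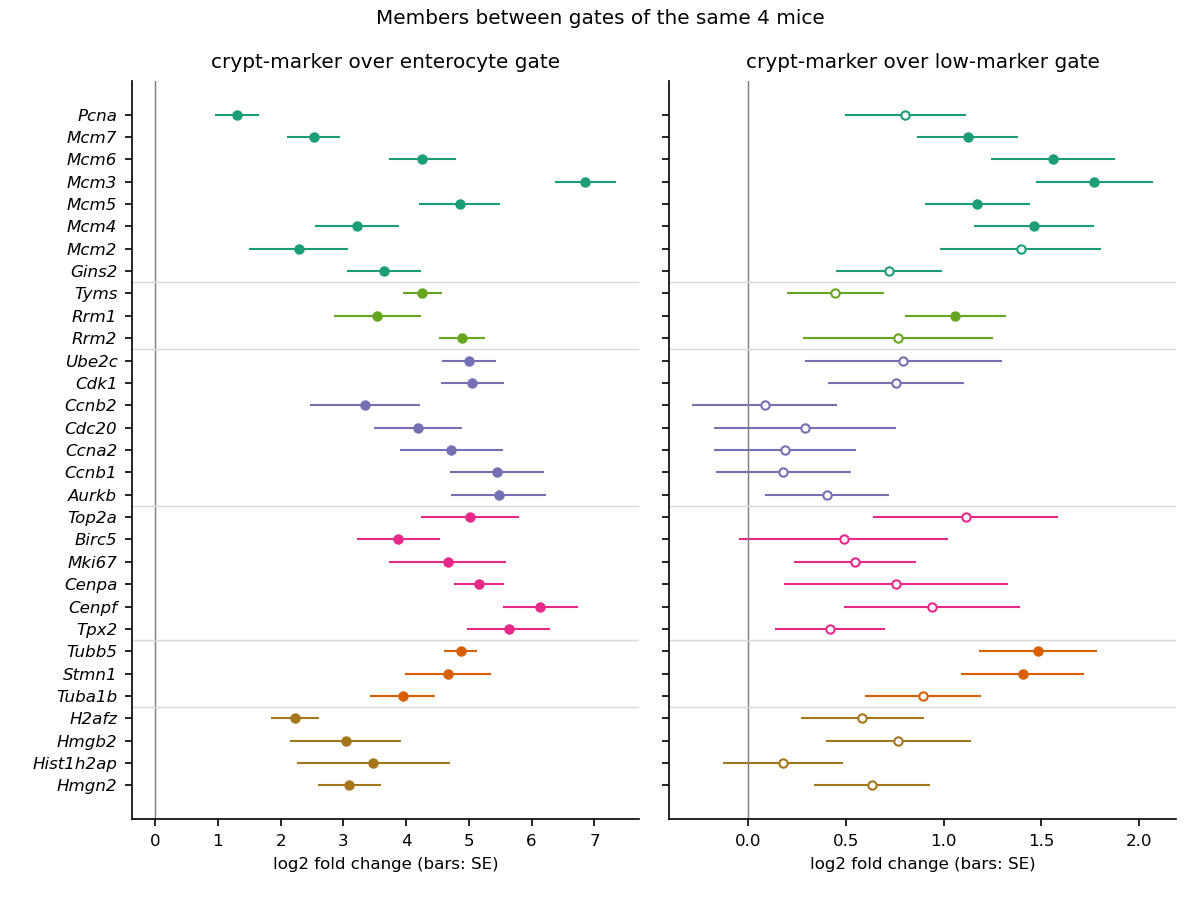
Log2 difference of each member between crypt-marker and enterocyte-gated cells and between crypt-marker and low-marker cells, with bars of 1 SE and filled symbols where the edgeR adjusted p is under 0.05. All 31 members are filled against the enterocyte gate and 8 against the low-marker gate.

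Single cells of the hashtag 2 mice were compared at equal depth, each thinned to 10000 UMIs, with at least 5 UMIs of a group of members counted as carrying it. Of 83 crypt-marker cells of WT2, 55.4% carried both groups, 12.05% replication only, 19.3% mitosis only and 13.3% neither. Of 128 such cells of KO2, 64.1% carried both, 10.9% replication only, 10.2% mitosis only and 14.8% neither. Low-marker cells more often carried mitosis members alone than replication members alone: 16.7% against 0 of 66 cells in WT2, which allows a share of up to 4.55%, and 26.8% against 3.62% of 138 cells in KO2. The limit of 5 UMIs was the same for both groups, although low-marker cells held more mitosis than replication RNA (1305 against 458 CPM in WT2, 1676 against 488 CPM in KO2). The limit thus favours mitosis alone. Neither group was carried by 59.1% and 38.4% of these low-marker cells. In the other 4 mice the 2 gates held 3 to 15 cells of this depth each, and at most 1 cell per gate and mouse carried both.

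**Figure D5:**
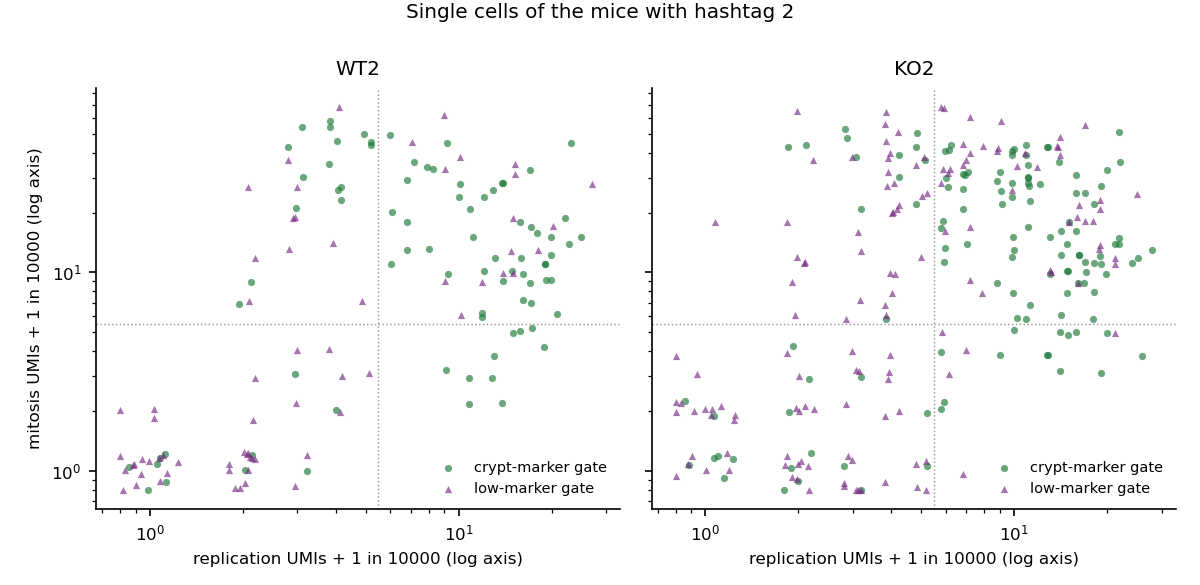
Replication against mitosis UMIs (plus 1, log axes, jittered) of single crypt-marker and low-marker cells of WT2 and KO2 thinned to 10000 UMIs, with dotted lines below which cells have under 5 UMIs. Crypt-marker cells gather where both are high, and some low-marker cells lie high in mitosis and low in replication.

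Across the crypt-marker and low-marker cells of WT2 (149 cells) and KO2 (266 cells) at this depth, pairs of mitosis members had a median correlation of 0.47 and 0.46. Pairs of replication members had medians of 0.33 and 0.29, and pairs across the 2 groups 0.10 and 0.08. Hist1h2ap followed Top2a (0.67 and 0.76), as did Mki67 (0.60 and 0.69). H2afz followed Hmgb2 (0.84 and 0.73). Mcm5 and Ccnb1 were near 0 (0.03 and -0.09). These values describe cells that share a library and a depth, and have no test.

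At 2000 UMIs per cell, replication members were seen in 64.0% of WT2 and 74.4% of KO2 crypt-marker cells, and mitosis members in 67.4% and 70.7%. In enterocyte-gated cells, with median depths of 8189 to 11004.5 UMIs before thinning against 31091.5 to 66385 in crypt-marker cells, the shares were 4.68% to 8.40% for replication and 1.24% to 4.26% for mitosis. These shares serve as the reference here, but the gate is a range of a score and not a cell type. In KO2, 2 enterocyte-gated cells had at least 20 mitosis UMIs before thinning, the highest with 64. Low-marker shares for mitosis were 40.0% in WT2 and 58.4% in KO2, with exact 95% intervals of 30.1% to 50.6% and 50.2% to 66.3%. In WT1, KO1 and KO3 the low-marker share was 0, which allows up to 33.3%, 12.5% and 11.5%. Intervals and limits cover counting error only.

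KO against WT was the comparison of the study, and with 3 mice a group it could not reach an exact p below 0.1. KO mice had a replication sum of 186 ± 218 CPM and WT mice one of 137 ± 169 CPM (SD, n = 3 each), a difference of 48.9 CPM (exact permutation test, 2-sided, p = 0.5). The mitosis sums were 373 ± 550 and 266 ± 416 CPM, a difference of 107 CPM (exact permutation test, 2-sided, p = 0.6). Mice of the same hashtag are not stated to be paired. Between them KO was higher each time, by 19.4, 106 and 21.1 CPM for replication and by 47.9, 260 and 12.2 CPM for mitosis (exact sign-flip test, p = 0.25, the smallest that 3 pairs allow). The mitosis values of hashtag 1 rested on few cells: 2 cells held 76.4% of the mitosis UMIs of KO1, and 2 cells 56.6% of those of WT1. Without KO2 the differences were -77.2 and -210 CPM, and without WT2 146 and 347 CPM (replication and mitosis). Leaving out WT1 gave 2.77 and -8.22 CPM and leaving out WT3 gave -2.39 and -18.5 CPM, so the direction of the pooled difference changed with the mice included. Without either hashtag 2 mouse they were 20.3 CPM (exact p = 0.333) and 30.1 CPM (exact p = 0.667).

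The share of cells with a replication UMI at 2000 UMIs per cell was 6.16%, 16.7% and 5.24% in WT1 to WT3 and 8.10%, 24.5% and 8.85% in KO1 to KO3, a mean difference of 4.44 percentage points (exact permutation test, 2-sided, p = 0.5). Without thinning the mean difference was 12.4 points (exact p = 0.3). For mitosis the shares were 2.57%, 15.6% and 3.34% in WT and 4.098%, 21.4% and 3.19% in KO, a mean difference of 2.41 points (exact p = 0.6) and of 9.68 points without thinning (exact p = 0.5). For mitosis, WT3 and KO3 differed by less than the counting error.

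Gene by gene over all assigned cells, no member passed in edgeR (0 of 31, with 0 of 12931 genes called, a background of 0%), none had an unadjusted p under 0.05, and DESeq2 called none. All 31 fitted differences were positive, from 0.02 to 1.84 on the log2 scale, with a median of 0.39 against 0.06 for all genes. That direction did not hold with 1 mouse left out: 10 of 31 were positive without WT1 (median -0.04), 6 without WT3 (median -0.12) and 0 without KO2 (median -2.19). Their errors were large: Pcna 0.31 (SE 0.65), Mcm7 0.24 (0.92), Tyms 0.53 (1.40), Rrm1 0.35 (1.40), Ube2c 0.51 (1.48), Cdk1 0.39 (1.65), Top2a 0.63 (1.83), Birc5 0.42 (1.69), Tubb5 0.35 (0.92), Stmn1 0.24 (1.59), H2afz 0.15 (0.86) and Hmgb2 0.40 (1.47), each at an adjusted p of 0.99. With the hashtag number as a block, Hist1h2ap alone passed (1.70, SE 0.17, edgeR adjusted p = 0.0093), where 0.302% of genes passed as higher and 1.38% in either direction. By plain order, 29 of 31 members were higher in KO in all 3 hashtag pairs, against 42.6% of 13587 genes, the exceptions being Cdc20 and Mcm3. In KO1 and in WT1, 2 cells each held most of the mitosis UMIs, so these members are not separate observations.

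No gene passed over all cells in edgeR (226 of 12931 had an unadjusted p under 0.05, and DESeq2 called 37), so none of the other cell cycle genes did, and the most abundant of each list are given by value. Cks2, a CDK-binding subunit, was at 16.2, 113 and 9.04 CPM in WT and 20.2, 164 and 16.4 CPM in KO, and Nasp, a histone chaperone, at 12.1, 71.9 and 8.40 CPM against 14.9, 97.1 and 14.9 CPM. Slbp, which binds histone mRNA, was at 20.8, 60.4 and 21.9 CPM against 26.03, 73.3 and 24.0 CPM, and the mitosis list's Arl6ip1 at 70.6, 195.5 and 74.0 CPM against 103.6, 217.9 and 95.4 CPM. The G1 inhibitor Cdkn1a (p21) had the opposite order, with 404, 215 and 412 CPM in WT and 363, 172 and 341 CPM in KO, and so did Ccng2, with 162, 80.9 and 203 CPM against 194, 59.2 and 141 CPM. Both were lowest in the hashtag 2 mouse of each genotype. H3f3a, a replication-independent H3.3 gene, was at 355, 780 and 334 CPM against 460, 845.5 and 479 CPM, and its copy H3f3b between 1027 and 1345 CPM in every mouse.

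KO2 was above WT2 in 31 of 31 members over all cells (58.1% of genes), but this did not hold gate by gate. In the crypt-marker gate KO2 was above WT2 in 4 of 13 mitosis members (median ratio 0.868) and in 9 of 11 replication members (median ratio 1.09), against 48.0% of 11904 genes. In the low-marker gate it was above in 13 of 13 mitosis members (median ratio 1.26) and 7 of 11 replication members (median ratio 1.06), against 54.4% of 11266 genes. The low-marker cells of WT2 and KO2 also differed in villus-bottom genes (41716 and 8278 CPM), villus-top genes (1445 and 391 CPM) and median UMIs (45012 and 64709.5). The part of these differences in the ratios was not tested. In the enterocyte gate KO2 was above WT2 in 30 of 31 members, at a median ratio of 1.94, against 61.3% of 10986 genes. Those genes had a mean of at least 10 UMIs, and some members had fewer, such as Mcm3 (1 and 4 UMIs in WT2 and KO2) and Aurkb (0 and 9). All these gate ratios are of 1 mouse to 1 mouse, with no test.

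In enterocyte-gated cells 18 members had enough counts to be tested, and none passed in edgeR (4 at an unadjusted p under 0.05), with 12 of 10481 genes called (0.114% in either direction and 0.0191% higher). By plain order, 7 of 31 members (Mcm2, Mcm4, Ccna2, Ccnb2, Aurkb, Top2a and Hist1h2ap) had all 3 KO mice above all 3 WT mice, against 11.5% of genes. Those genes had a mean of at least 10 UMIs in the gate, and the members were not so filtered. Aurkb had 0, 0 and 0 UMIs in WT and 2, 9 and 2 in KO, and Ccna2 1, 4 and 4 against 5, 16 and 6. The 2 shares are thus not on equal terms. Hist1h2ap had 1.07, 1.25 and 0.753 CPM in WT and 4.97, 7.01 and 3.56 CPM in KO, groups that did not overlap, from 6, 10 and 7 and from 45, 75 and 30 UMIs. Its log2 difference was 2.19 (SE 0.37, edgeR adjusted p = 0.17). DESeq2 called it (2.20, adjusted p = 0.0076, background 0.172% higher), as did edgeR with the hashtag block (2.18, SE 0.32, adjusted p = 0.0017), where 12.3% of genes passed as higher and 20.8% in either direction. Under that block Top2a passed as well (1.59, SE 0.39, adjusted p = 0.017), with 0.712, 1.38 and 0.430 CPM in WT and 1.77, 4.68 and 1.78 CPM in KO. Of 17 other histone genes tested in that fit, 6 passed as higher and 0 as lower. Markers of villus position moved in the same blocked fit, with 7 of 8 villus-top genes lower, 5 of 7 villus-bottom genes higher and 1 lower, and 7 of 11 Paneth genes higher. In enterocyte-gated cells, villus-top genes summed to 29165, 14691 and 29604 CPM in WT and 20509, 12388 and 18217 CPM in KO, and Paneth genes to 340, 258 and 317 CPM against 781, 563 and 677 CPM. Their part in the rise of Hist1h2ap and Top2a was not tested. Without both hashtag 2 mice, Hist1h2ap (2.04, adjusted p from edgeR = 0.027) and Mcm2 (1.91, adjusted p = 0.026) passed as higher and Cdc20 (-2.15, adjusted p = 0.038) as lower, where 925 of 10447 genes passed (8.85%, of which 3.56% of all tested were higher and 5.29% lower). Mcm2 was at 1.07, 1.75 and 1.18 CPM in WT and 5.85, 1.78 and 4.15 CPM in KO, and Cdc20 at 3.02, 0.750 and 7.10 CPM against 1.10, 1.496 and 1.66 CPM.

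In the crypt-marker gate WT1 and WT3 had under 20 cells, and no test of genotype was run there. With crypt-marker and low-marker cells joined, an addition made after the data were seen, 0 of 29 tested members and 0 of 8975 genes passed in edgeR (0% background; with the hashtag block 0 members, against 0.0446% of genes in either direction and 0.0111% higher), no member had an unadjusted p under 0.05, and DESeq2 called no member. The median log2 difference of the members was 0.01, from -0.38 to 1.36. It was 1.88 without WT2 and -1.60 without KO2.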

How the data were processed

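The authors deposited whole-number UMI counts per gene and barcode, and hashtag counts, as 1 filtered matrix per genotype, per the file headers made by Cell Ranger 7.0.1. The build mm10 and Seurat 4.1.0 are named in the submitters' processing notes without a role. Labels name a second experiment, which was not analysed here. Gene UMIs of all barcodes summed to 102915321 (WT) and 110960113 (KO).

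Barcodes were kept at 1000 UMIs, 500 genes and 25% mitochondrial UMIs, and given to a mouse with HTODemux in Seurat 5.3.0 (quantile 0.99). No doublet caller was run beyond the hashtags, which miss doublets within a mouse. Gates were cut on marker UMIs per 10000 in the order immune (20 lymphocyte or 50 neutrophil), Paneth (500), enteroendocrine (100), tuft (40), goblet (500), enterocyte (300) and crypt-marker (5). For genotype and gates, UMIs were summed per mouse and tested with edgeR 4.0.16 (quasi-likelihood, TMM, filterByExpr, Benjamini-Hochberg over all genes tested, threshold 0.05), with DESeq2 1.42.0 as an alternative. The scripts were tested on simulated data. Sums and shares were tested by exact permutation over mice, with cells thinned to 2000 UMIs for shares, which left out 8 to 27 cells per mouse.

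Log2 differences are given for the 2 members of each role with the highest mean CPM, for members that passed, and for a few further ones chosen after their values were seen (Hist1h2ap under alternatives). Of the other lists, the highest 2 and up to 5 passing genes by p were eligible, and some of these are named. Members and lists were chosen with earlier results of these data known, and so were the gate limits.

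Hashtag numbers are shared between genotypes, but the labels state no pairing. Deviations from the group means correlated between equal numbers (0.526, 0.890 and 0.702 over all cells, and 0.667, 0.832 and 0.551 in the enterocyte gate). Mice 1 and 3 also correlated with each other, over all cells more than with their equal numbers (WT1 with KO3 0.571, WT3 with KO1 0.725). In the enterocyte gate these values were 0.450, which is lower than for equal numbers, and 0.618, which is higher for WT3. The correlations thus cannot show that 1 belongs with 1 and 3 with 3, since the mouse furthest from a group mean shifts the deviations of the others. Blocked values are given as an alternative where they change a call, and calls that passed only with the block rest on an assumed pairing. P-values measure the spread between these mice, each sampled once.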

Additional observations from a re-analysis of the deposited data

Results flagged for a closer look

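Barcodes outside the mouse comparisons also held cell cycle RNA. The limit that a count of 0 allows there, 0.0899 to 0.348 CPM, is passed by any expressed gene set, so the values are descriptions. In the WT library, 4263 barcodes over the mitochondrial limit had 24.8 CPM of replication and 18.7 CPM of mitosis members. The 2320 WT barcodes with no hashtag call had 92.7 and 227.5 CPM, and the 517 hashtag doublets had 138 and 309.6 CPM. In the KO library, 2642 barcodes over the mitochondrial limit had 33.2 and 34.1 CPM. Its 878 barcodes with no call had 54.3 and 35.5 CPM, and its 288 doublets 282.5 and 579.8 CPM. Uncalled barcodes thus held more mitosis than replication RNA in the WT library and less in the KO library, which is a difference between 1 library and 1 library and was not tested.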

How the results depend on the processing

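Calls in all cells rose from 0 to 1 member with the replicate block (the hashtag pairing), and from 0 to 37 genes with DESeq2 and 179 with the block. In the enterocyte gate 0 members became 1 with DESeq2, 2 with the replicate block and 3 without both mice of hashtag 2, and 12 genes became 99, 2182 and 925, 37 with no count filter, and 0 without any 1 mouse. With crypt-marker and low-marker cells joined, the block took the genes called from 0 to 4, with no member among them, and DESeq2 to 3. The block changed no other call of a member. The pairing left the mean differences at 48.9 and 107 CPM (sums) and 4.44 and 2.41 points (shares), with sign-flip p of 0.25, 0.25, 0.25 and 0.5. Between crypt-marker and low-marker cells, 8 members became 22 and 1099 genes became 4909 with a crypt limit of 10, which left 2 mice. The genes called there were 2464 with no count filter and 366 without WT2.

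Leaving out 1 mouse at a time moved the crypt-marker to low-marker count from 3 to 8. It moved the KO minus WT replication sum from -77.2 to 146 CPM and the mitosis sum from -210 to 347 CPM, and the shares from -0.912 to 8.12 points for replication and -3.51 to 6.61 for mitosis. The all-cell log2 differences ranged for Mcm7 from -0.94 to 1.504, Pcna -0.51 to 0.98, Tyms -1.66 to 2.92, Rrm1 -2.07 to 2.45, Cdk1 -2.04 to 3.38, Ube2c -1.51 to 3.14, Top2a -2.42 to 3.97, Birc5 -2.48 to 3.35, Stmn1 -2.33 to 2.98, Tubb5 -0.74 to 1.70, Hmgb2 -2.24 to 2.55 and H2afz -1.07 to 1.10. In the enterocyte gate they ranged for Mcm7 from -0.032 to 0.17, Tyms -0.055 to 1.63, Rrm1 -0.19 to 0.22, Tubb5 -0.025 to 0.38, Hmgb2 -0.047 to 0.28 and H2afz -0.33 to 0.25. The lowest all-cell value came without KO2 and the highest without WT2.

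Other reversals ended between -0.26 and 0.30. Some moved far, since in the main fit of the enterocyte gate Ube2c was 0.73 and Stmn1 0.61. With a hashtag ratio rule, enterocyte-gate values were -0.024 (Mcm7), -0.26 (Ube2c), -0.042 (Hmgb2) and -0.076 (H2afz). H2afz there was -0.0048 with DESeq2, -0.0083 with no count filter and -0.0059 with the replicate block. Birc5 at the strict crypt limit was -0.14. Without 1 crypt-marker cell of KO1, the mean replication minus mitosis ratio of crypt-marker to low-marker cells went from -0.43 to 0.30, and that to enterocyte-gated cells from -1.89 to -1.16. Without both mice of hashtag 2, Hmgb2 and H2afz were -0.078 and -0.10 in all cells, and Rrm1 -0.10, Stmn1 -0.17, Hmgb2 -0.029 and H2afz -0.071 in the enterocyte gate. The cause was not tested. Low counts limit the crypt-marker values of WT1 and WT3.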
